A study of Rattus norvegicus with 14 samples.

Results

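Avp and Oxt encode the precursors of vasopressin and oxytocin, the hormones that magnocellular neurons of the supraoptic nucleus (SON) send to the posterior pituitary. The members were the 2 rows of the deposited gene table with the Ensembl rat IDs ENSRNOG00000021229 (Avp) and ENSRNOG00000021225 (Oxt), out of 32623 genes. Both passed the filter on low values, a normalised read count of at least 10 in at least 7 libraries. The table carries no gene symbols, so the names rest on these IDs and on the abundance described below.

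The libraries came from SON punches of male Sprague Dawley rats with normal water balance, weighing 250 to 300 g. Every rat had received an adeno-associated virus (AAV) into the SON, so the controls were injected as well. The virus carried a control microRNA in the 7 miCtl libraries and a microRNA directed at Rasd1 in the 7 miRasd1 libraries. No uninjected group is among the samples, and the promoter that drives the microRNA is not given in the sources used here. A punch of 1 mm from sections of 100 µm also takes in glia, vessels and neighbouring tissue. Both groups carry the numbers 1, 2, 3, 4, 8, 11 and 12, and the labels do not say whether a number marks a rat. The p-values of the main test therefore measure the spread between punches, taken as independent. Those of the sign-flip test and the block on number measure the spread of differences within numbers. Library totals ran from 19968058 to 28345441 reads.

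Each precursor is made as a prohormone that holds the hormone and its carrier, a neurophysin. The prohormone is cut into its parts while secretory granules travel down the axon, and vasopressin and oxytocin are for the most part made by different magnocellular neurons. Vasopressin acts on the kidney to retain water, whereas oxytocin drives milk ejection and uterine contraction and, in the rat, sodium loss. Transcription of Avp rises with osmotic demand and responds to cAMP. RASD1 is a Ras-like G protein, induced by glucocorticoids, that restrains cAMP signalling. The comparison thus asks whether a microRNA directed at Rasd1 goes with another level of the hormone mRNAs when water is freely available. The miRasd1 libraries are called the knockdown group after this design, and whether Rasd1 fell was not examined.

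The genes lie side by side on chromosome 3 with no annotated gene between them, and are transcribed towards each other from opposite strands. The 250 bases before each start site are shown because cAMP signalling and nuclear receptors are known to act on these promoters. They were taken from RefSeq (GRCr8), Avp at chr3:138248523-138248772 on the minus strand and Oxt at chr3:138235504-138235753 on the plus strand. Capitals mark matches to the motifs named after the sequences.
Avp: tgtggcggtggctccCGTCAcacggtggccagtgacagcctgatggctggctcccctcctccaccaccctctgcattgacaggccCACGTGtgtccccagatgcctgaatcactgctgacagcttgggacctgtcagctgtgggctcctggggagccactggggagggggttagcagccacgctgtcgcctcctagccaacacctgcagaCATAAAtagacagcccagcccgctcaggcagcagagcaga
Oxt: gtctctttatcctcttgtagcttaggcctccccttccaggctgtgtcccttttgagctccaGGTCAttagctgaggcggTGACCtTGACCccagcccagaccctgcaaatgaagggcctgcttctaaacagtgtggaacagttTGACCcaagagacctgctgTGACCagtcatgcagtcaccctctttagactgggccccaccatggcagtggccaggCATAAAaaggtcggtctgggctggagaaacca
The motifs were chosen after the sequences had been read, and no matches overlapped. The core of the cAMP response element (TGACG, both strands) had 1 match in Avp, from −235 to −231 before the start site, and 0 in Oxt. It occurs in 18.2% of the 33469 promoters of this length. The full element (TGACGTCA, both strands) was in neither window and is in 1.59% of promoters. The nuclear receptor core (TGACC, both strands) had 5 matches in Oxt and 0 in Avp. At least 1 such match is found in 35.4% of promoters and at least 5 in 0.0508%. The E-box bound by clock factors (CACGTG) had 1 match, in Avp, and is in 5.59% of promoters. Each gene had 1 TATA-like match on its own strand (CATAAA, 6.10% of promoters), from −40 to −35 in Avp and from −32 to −27 in Oxt. These matches describe letters only, and factor binding was not measured.

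Both hormone mRNAs were among the most abundant transcripts of the punch in nearly all libraries. By mean normalised reads, which are not divided by transcript length, Avp stood at place 15 with 67584 and Oxt at place 19 with 65149. The most abundant gene of the table had 410069, and the median gene tested had 518. Avp was at places 13 to 20 in 13 libraries and at place 58 in library miRasd1 8. Oxt was at places 12 to 27 in the same 13 libraries and at place 33 in miRasd1 8. The defining hormones of the nucleus were thus present in every punch, and miRasd1 8 held the least of both.

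In the control group, Avp measured 67830 normalised reads in library 1, 78437 in 2, 76623 in 3, 69240 in 4, 58414 in 8, 75664 in 11 and 60835 in 12. In the knockdown group it measured 59978 in library 1, 69024 in 2, 78405 in 3, 64897 in 4, 26262 in 8, 83561 in 11 and 77000 in 12. The groups overlapped almost throughout, and only miRasd1 8 lay below the control range.

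Oxt in the control group was at 58004 normalised reads in library 1, 87789 in 2, 74869 in 3, 64581 in 4, 56775 in 8, 70778 in 11 and 46733 in 12. In the knockdown group it was at 53493 in library 1, 86461 in 2, 72727 in 3, 77457 in 4, 34160 in 8, 76240 in 11 and 52013 in 12. Again the groups overlapped, with number 2 the highest of both groups and miRasd1 8 the lowest library of all.

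**Figure D1:**
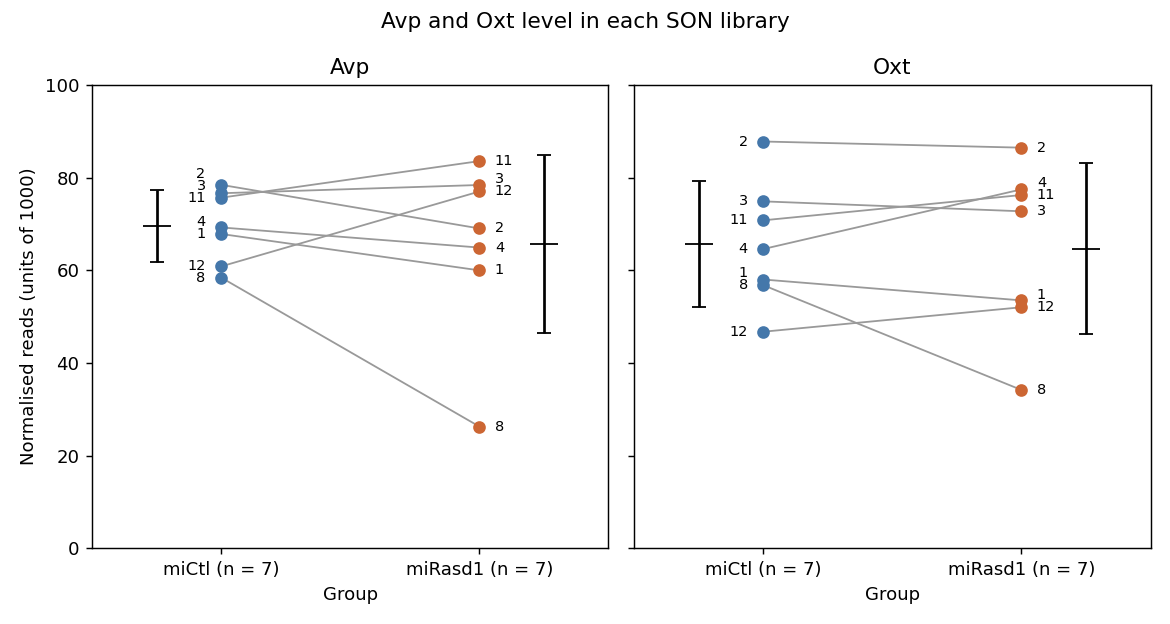
Normalised reads, in units of 1000, of Avp (left) and Oxt (right) in each library, with the number from its title; grey lines join libraries of the same number and black bars give the group mean ± SD (n = 7). The groups overlap for both genes, and miRasd1 8 is the lowest library in each panel, at 26262 for Avp and 34160 for Oxt.

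Neither hormone gene passed the test of miRasd1 against miCtl. The Avp mean was 69578 ± 7846 normalised reads for the controls and 65590 ± 19182 for the knockdown libraries (SD over 7 libraries each). The limma fold changes compare means of log2 values, so they are not the ratio of these means of reads. For Avp the log2 fold change was −0.16 (SE 0.19, adjusted p = 0.868 in limma). The fold was 0.897, with a 95% confidence interval of 0.678 to 1.19. With the number as a block the Avp fold was the same, and its 95% confidence interval was narrower, 0.737 to 1.09. The Oxt mean was 65647 ± 13526 for the controls and 64650 ± 18498 for the knockdown libraries (SD over 7 libraries each). From the mean log2 values, the log2 fold change of Oxt was −0.06 (SE 0.18, adjusted p = 0.968 in limma). The fold was 0.962, with a 95% confidence interval of 0.740 to 1.25. The block on number left the Oxt fold as it was and gave a narrower 95% confidence interval, 0.837 to 1.11. By exact permutation of the 7 against 7 libraries, two-sided, p was 0.699 for Avp and 0.801 for Oxt (0.801 for both when adjusted over the 4 measures compared here). Of the 2 members, 0 were called, and 0 had an unadjusted p under 0.05 in limma, edgeR or DESeq2. Among all 15178 genes tested, limma called 0.145%, or 0.988% with the number as a block. Without a block, edgeR called 0.119% of these genes and DESeq2 1.12% of 15296. An unadjusted p under 0.05 was reached by 1499 of the 15178 genes in limma and 1526 in edgeR. In DESeq2 it was reached by 1532 of 15296. Beside these shares, a count of 0 among 2 members is no result about the members. The authors' deposited table gives log2 fold changes of −0.09 for Avp (SE 0.16, adjusted p = 0.957) and −0.02 for Oxt (SE 0.18, adjusted p = 0.997). In whole punches, a lower share of hormone neurons and less mRNA per neuron cannot be told apart. Whether the targeted mRNA itself was reduced was not examined, since no ID could be matched to Rasd1.

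Library miRasd1 8 decided the sign of both differences. Without it the Avp mean of the knockdown group was 72144 ± 8982 normalised reads (SD, n = 6). The log2 fold change was then 0.05 (limma adjusted p = 0.876) and the fold 1.04, with a 95% confidence interval of 0.913 to 1.18. Oxt was at 69732 ± 13918 without it (SD, n = 6), with a log2 fold change of 0.09 (limma adjusted p = 0.870) and a fold of 1.06 (0.862 to 1.31). Without control library 2, the highest of its group, the Oxt value was 0.02 on the log2 scale (limma adjusted p = 0.989). Without miRasd1 11, the most deeply sequenced library, the log2 fold changes were −0.23 for Avp and −0.11 for Oxt.

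**Figure D2:**
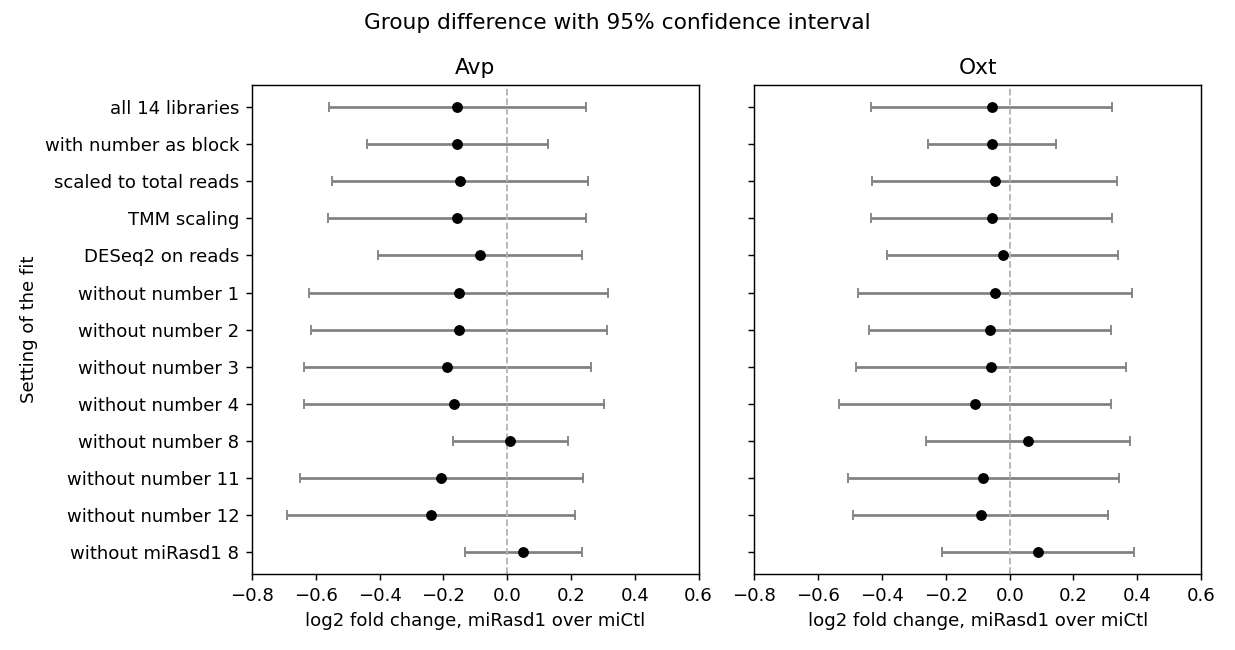
Log2 fold change of miRasd1 over miCtl (points) with its 95% confidence interval (bars) for Avp (left) and Oxt (right) under each setting on the vertical axis. Every interval shown spans 0, and the Avp interval is narrowest where miRasd1 8 or number 8 is left out.

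Compared within numbers, the differences went both ways. For Avp the miRasd1 library was higher than the miCtl library of its number in 3 of 7 cases. The ratio of miRasd1 to miCtl was 0.884 for number 1, 0.880 for 2, 1.02 for 3, 0.937 for 4, 0.450 for 8, 1.10 for 11 and 1.27 for 12. For Oxt it was higher in 3 of 7 cases as well, with ratios of 0.922 for number 1, 0.985 for 2, 0.971 for 3, 1.20 for 4, 0.602 for 8, 1.08 for 11 and 1.11 for 12. Number 8 was the lowest for both genes, while numbers 11 and 12 were above 1 for both. The exact two-sided sign-flip permutation test over the 7 numbers gave p = 0.547 for Avp and p = 0.797 for Oxt (0.797 for both when adjusted over the 4 measures).

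The hormone share of the libraries did not separate the groups either. Avp and Oxt together held 0.613 ± 0.098% of the reads of control libraries and 0.593 ± 0.158% of those of knockdown libraries (SD over 7 each; exact permutation test, p = 0.798). The control libraries ran from 0.478% in 12 to 0.757% in 2, and the knockdown libraries from 0.277% in 8 to 0.722% in 11. Without miRasd1 8, the knockdown mean was 0.646 ± 0.081% (SD, n = 6).

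The balance of the 2 hormone mRNAs was then compared, since a ratio within a library does not depend on how that library was scaled. Oxt reads per Avp read were 0.855 in control library 1, 1.12 in 2, 0.977 in 3, 0.933 in 4, 0.972 in 8, 0.935 in 11 and 0.768 in 12. In the knockdown group the ratio was 0.892 in library 1, 1.25 in 2, 0.928 in 3, 1.19 in 4, 1.30 in 8, 0.912 in 11 and 0.675 in 12. Number 12 had the lowest ratio of both groups, and the knockdown libraries reached further in both directions than the controls. The mean log2 ratio was −0.10 ± 0.17 for the controls and −0.0018 ± 0.34 for the knockdown libraries (SD over 7 each). The difference of 0.10 did not pass the exact permutation test (p = 0.497, n = 7 each) or the exact sign-flip permutation test (p = 0.313), and 4 of 7 numbers had the higher ratio in miRasd1. A difference in response between Avp and Oxt was therefore not detected.

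Avp and Oxt were among the most variable of the abundant genes between punches of the same group. Counting error was small, with a coefficient of variation of 0.306 to 0.602% for Avp and 0.320 to 0.528% for Oxt. The SD within groups was 0.42 log2 units for Avp and 0.39 for Oxt, against a median of 0.08 over the 3036 genes that make up the most abundant 20% of those tested. Of these 3036 genes, 6 had a larger SD than Avp and 9 a larger SD than Oxt. Without miRasd1 8 the SD was 0.17 for Avp and 0.30 for Oxt, and 183 and 23 genes were more variable. In the controls alone it was 0.17 for Avp, with 195 genes above it, and 0.30 for Oxt, with 30 genes above it. The spread of Oxt was thus present in both groups, whereas that of Avp came largely from miRasd1 8.

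**Figure D3:**
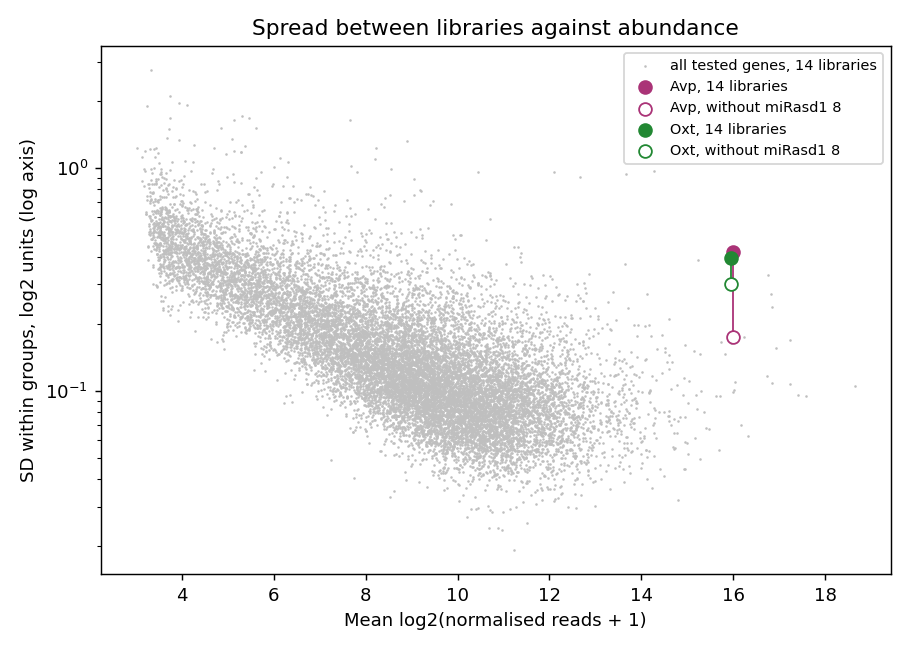
SD within groups (log2 units, log axis) against mean log2(normalised reads + 1) for all 15178 tested genes (grey), with Avp and Oxt over 14 libraries (filled) and without miRasd1 8 (open). Both hormone genes lie above most genes of their abundance, and the open Avp point drops from 0.42 to 0.17.

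Library miRasd1 8 held 37.9% of the median Avp level of the other 13 libraries and 48.3% of their median Oxt level. Relative to that median, the log2 difference was −1.40 for Avp and −1.05 for Oxt. No gene among the 3036 most abundant lay further below the median of the other libraries than Avp, and Oxt was the third lowest. Among all 15178 genes tested, 27 were at or below the Avp difference and 67 at or below that of Oxt, each hormone gene included. The median difference of these 3036 genes was −0.0073. The library was the lowest of the 14 libraries in 19.9% of the 3036 genes, where an even share would be 7.14%. How far each of the other libraries departs from an even share was not examined. Its total of 22877366 reads and its 19260 genes with a read were within the range of the others. Markers of other cell types could not be matched to IDs, and their part in the low hormone level was not tested.

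Avp and Oxt varied together across control punches. Over the 7 miCtl libraries their log2 levels had a Pearson r of 0.89 (exact permutation p = 0.00615, 0.0185 adjusted over 3 relations) and a Spearman rho of 0.96 (exact permutation p = 0.00278, adjusted 0.00833). Without the 2 libraries farthest from the median of Avp, miCtl 8 and miCtl 12, r was 0.93 (exact permutation p = 0.00833, n = 5). In miRasd1 the Pearson r was 0.81 (exact permutation p = 0.0474, adjusted 0.0474, n = 7), but the Spearman rho was 0.36 (exact permutation p = 0.444, adjusted 0.444). That relation rested on miRasd1 8, since r was 0.19 without it (exact permutation p = 0.674, n = 6) and 0.05 without miRasd1 8 and miRasd1 11. The differences between libraries of the same number behaved likewise, with r = 0.91 over 7 numbers (exact permutation p = 0.0286, adjusted 0.0429), rho = 0.64 (exact permutation p = 0.139, adjusted 0.208), and r = 0.43 without number 8. Without numbers 8 and 12 that r was 0.29. Adjusted over all 6 correlations computed, the exact permutation p of r was 0.0369 in miCtl, 0.0589 in miRasd1 and 0.0589 for the differences. Only the miCtl relation then passed 0.05. Whether the relation differs between the groups was not tested.

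**Figure D4:**
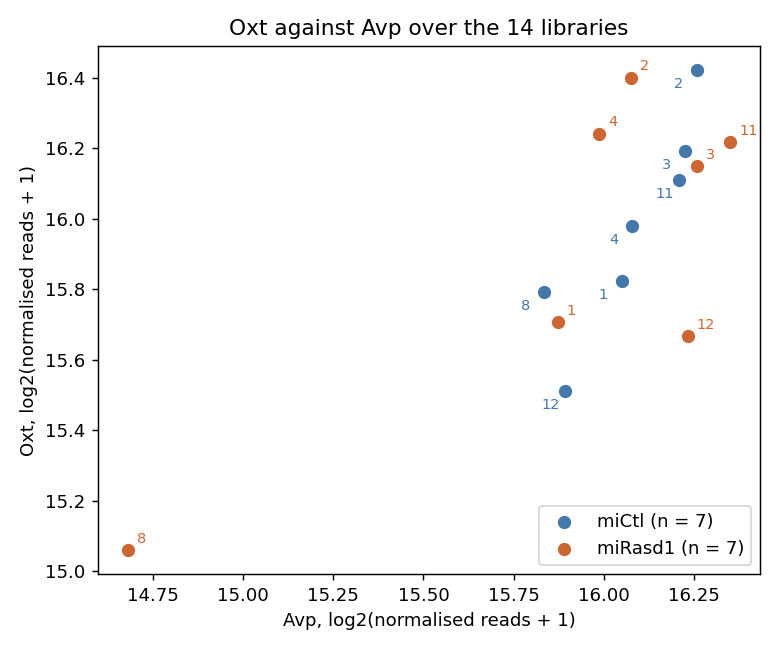
Log2(normalised reads + 1) of Oxt against Avp in the 7 miCtl and 7 miRasd1 libraries, each with its number. The miCtl points follow a rising line (r = 0.89), while the r of 0.81 in miRasd1 rests on library 8 at the lower left.

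Libraries that share a number also tended to share their hormone level, though none of these 3 relations passed the threshold once adjusted over the 6 correlations computed. The Pearson r between miCtl and miRasd1 libraries of the same number was 0.66 for Avp and 0.73 for Oxt (exact permutation p = 0.0589 for each, n = 7). For the log2 ratio of Oxt to Avp it was 0.81 (exact permutation p = 0.0337, n = 7, adjusted 0.0589). The Spearman rho was 0.57 for Avp (exact permutation p = 0.200), 0.82 for Oxt (exact permutation p = 0.0341) and 0.75 for the ratio (exact permutation p = 0.0663), with adjusted values of 0.240, 0.102 and 0.133. Without numbers 2 and 12, the r of the ratio was 0.45, and that of Oxt 0.80. Avp without numbers 8 and 12 had an r of 0.74. The numbers left out were the 2 farthest from the median of the miCtl values. The 3 relations themselves were chosen after the values had been seen.

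Some other genes followed each hormone gene more closely than Avp and Oxt followed each other. Likeness was the mean of the Pearson r within miCtl and within miRasd1 on the log2 scale, over 12037 other tested genes, those whose mean reached 100 normalised reads. Oxt was at place 30 in likeness to Avp, and Avp at place 32 in likeness to Oxt, with a mean r of 0.85. A mean r of at least 0.8 was reached by 81 genes for Avp and by 112 for Oxt, and a mean r of −0.8 or lower by 24 genes for Avp and by 55 for Oxt. The lowest mean r was −0.90 for each, and the median over all genes −0.01. High and low values are expected among so many genes over 7 libraries per group, and their number was not tested against chance. These r values share the libraries and their scaling, and miRasd1 8 weighs on them. Without that library Oxt was at place 456 for Avp and Avp at place 1112 for Oxt, with a mean r of 0.54.

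The closest genes carry no symbol here. For Avp they were ENSRNOG00000000465, with r = 0.95 in miCtl and 0.94 in miRasd1 (0.70 without miRasd1 8), and ENSRNOG00000047867, with 0.90 and 0.98 (0.72). The level of ENSRNOG00000000465 was 2505 ± 135 normalised reads in the controls and 2459 ± 263 in the knockdown libraries (SD over 7 each), with 1940 in miRasd1 8. For Oxt they were ENSRNOG00000020032, with 0.96 and 0.91 (0.74 without miRasd1 8), and ENSRNOG00000025164, with 0.94 and 0.91 (0.73). The level of ENSRNOG00000025164 was 114 ± 19.8 in the controls and 130 ± 31.6 in the knockdown libraries (SD over 7 each), with 72.4 in miRasd1 8. These genes were picked for their likeness over libraries that include miRasd1 8, so their low level there follows from the choice.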

How the data were processed

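Poly(A) libraries of individual SON punches were sequenced, per the labels' protocols. FastQC, STAR, featureCounts and DESeq2 are named in the submitters' processing notes, with no version stated. Which strand setting and genome build they used is not given in the sources used here. Deposited by the authors was a signal value per gene and library, a read count divided by 1 size factor per library, per the file headers and values. Beside it the authors deposited their own log2 fold change, standard error, Wald score, p-value and adjusted p-value. Every library was divided by its smallest step, which made 100% of the values above 0 whole to within 0.001.

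The test was limma-trend (3.58.1) on log2(value + 1) over 15178 genes (7 or more libraries reaching a value of 10), Benjamini-Hochberg adjusted at 0.05. It was checked on simulated data. Recovered reads were tested with edgeR (4.0.16) and DESeq2 (1.42.0) as alternatives. Single values were compared by exact two-sided permutation over libraries. Precision is limited by the number of libraries rather than by depth. Same-number libraries correlated at 0.20 to 0.40 (median 0.30) over genes in their deviations from group means, above the bound of 0.1. Libraries of different groups and numbers correlated at −0.23 to 0.14 (median −0.05), so the bound alone does not mark a pair. The lowest of the 7 same-number values was nevertheless above the highest of the 42 different-number values. A block on number was fitted beside the main test. The pairing comes from these values and the titles. No 2 libraries agreed within sampling noise (lowest chi-square per degree of freedom 4.78), so all were counted.

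Members and lists were chosen with earlier results of these data known. Avp and Oxt were always named, with the 2 genes most like each. Lists of hormone pathway genes and cell type markers were not analysed here, because 0 of the 47357 RefSeq genes in the table used carry an Ensembl ID.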

Additional observations from a re-analysis of the deposited data

Results flagged for a closer look

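Library miRasd1 8 stood apart from the other 6 knockdown libraries in Avp. Its level of 26262 normalised reads (14.68 on the log2 scale) was separated from the nearest library by 0.588 of the group's range, and by 0.714 of it on the log2 scale. Both exceed the limit of 0.568 for 7 values at 95% confidence. The log2 difference between the libraries numbered 8, miRasd1 minus miCtl, stood apart from the other 6 numbers as well, at −1.15 for Avp (gap 0.649 of the range) and −0.73 for Oxt (gap 0.619). Of 16 sets of values examined in this way, 4 had such a value, where chance gives about 1 in 20, but all 4 involve the same library. The Oxt level of miRasd1 8 within its group was not beyond the limit (gap 0.341, and 0.453 on the log2 scale).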

How the results depend on the processing

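Under 41 alternatives each, Avp and Oxt passed the threshold in 0, with adjusted p from 0.517 to 0.982 for Avp and 0.614 to 0.9995 for Oxt. Other tools, scalings, filters and pseudocounts gave log2 fold changes of −0.16 to −0.09 for Avp and −0.06 to −0.02 for Oxt. With the replicate block the values stayed at −0.16 (adjusted p = 0.644) and −0.06 (adjusted p = 0.849), so the block changed no call. Scaling to total reads together with the block was added after the data were seen. Leaving out a library or a number gave −0.24 to 0.05 for Avp and −0.14 to 0.09 for Oxt. The sign turned for Avp without miRasd1 8 (0.051) or number 8 (0.010, also with the block), and for Oxt without miCtl 2 (0.019), miRasd1 8 (0.088) or number 8 (0.057, also with the block). The difference in hormone share was −0.042 to 0.033 percentage points, above 0 without miCtl 2 (0.0040), miRasd1 8 (0.033) or number 8 (0.018). The log2 ratio of Oxt to Avp differed by 0.04 to 0.19 and passed in 0 of 23 alternatives. The correlation of Avp with Oxt in miCtl was 0.87 to 0.97. Its exact permutation p, here not adjusted, was under 0.05 in 10 of 10 alternatives (0.0014 to 0.028). In miRasd1 it was 0.19 to 0.91 with a library left out, 0.70 on linear values (exact permutation p = 0.0629) and 0.052 without the 2 farthest libraries. For differences within numbers it was 0.43 to 0.98 with a number left out and 0.29 without the 2 farthest numbers. Counting error was under 1% of each level, so depth did not limit these comparisons.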
